A study of Mus musculus with 4 samples.

Results

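Semaphorins are membrane-bound or secreted guidance proteins, and plexins are their main receptors. Neuropilins are co-receptors that pair with plexins. A plexin carries the signal with an intracellular domain that switches off small GTPases of the Rap and Ras group and so loosens adhesion and reshapes actin. In the immune system class 4 semaphorins and Sema7a act between dendritic cells, T cells and B cells, and neuropilin-1 is best known in this setting as a surface marker of human plasmacytoid dendritic cells. Described here are 10 genes of this family, chosen by symbol from the table of 27179 genes: the ligands Sema4a, Sema4b, Sema4c, Sema4d and Sema7a, the receptors Plxna1, Plxnb2, Plxnc1 and Plxnd1, and the co-receptor Nrp1. All 10 were found in the table and all 10 passed the filter on low counts.

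The cells were plasmacytoid dendritic cells (pDCs), which sense viral nucleic acids and secrete type I interferon, obtained from C57BL/6 mouse bone marrow after 8 days of culture with Flt3 ligand. Every culture then received imiquimod, a TLR7 ligand, at 1 µg/ml for 24 h, so no unstimulated cells were compared. The cells were sorted on SiglecH and CD11b and divided by a blue fluorescent protein (BFP) that stands for Cxcl10 expression, into BFP-positive and BFP-negative libraries, 2 of each. The sources used here do not give the construct that carries BFP, the level of the CD11b and BFP gates, or the meaning of a code in the titles that both libraries of a replicate number share. The population label of the BFP-negative libraries reads CXCL10-positive while the series' design text reads CXCL10-negative, so only the BFP part was used. Nothing in the sources says whether replicates came from separate mice or cultures, so the p-values measure the spread between these libraries only.

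Library totals were 11868254 to 12570117 counts, and the upper limit for a gene without a count, taken as 3 counts, was 0.237 to 0.257 CPM (counts per library total after scaling by a TMM factor). This limit holds for counting error alone, as copies made by PCR do not count molecules. Cxcl10 itself, which checks the sort and is no result, had 3 and 19 counts in the BFP-negative and 149 and 154 in the BFP-positive libraries. The 12 pDC markers were all detected, with 2 higher and 4 lower in BFP-positive cells. Their sums were 24200 and 28788 CPM in BFP-negative and 20166 and 19260 CPM in BFP-positive cells. Ly6d alone held most of each sum, at 17289 and 20947 CPM in BFP-negative and 13612 and 12571 CPM in BFP-positive cells. Markers of other cells moved as well. Of 13 conventional dendritic cell markers 5 were higher and 1 lower, with sums of 869 and 881 against 1205 and 1318 CPM. Id2, which was not called, held 488 and 419 against 509 and 463 CPM of these sums. Of 11 monocyte and macrophage markers 6 were higher and 2 lower, with sums of 641 and 777 against 1386 and 1535 CPM. Ly6c2, 1 of the 6, held 299 and 379 against 777 and 897 CPM of these sums. Cd68, which was not called, held 249 and 277 against 273 and 292 CPM. C1qa had no count in any library, and Csf1r had 3 and 0 against 265 and 398 counts. Of 6 B cell markers 2 were lower and none higher, with sums of 121 and 123 against 94.7 and 99.6 CPM. Sums stayed under 11 CPM for the T and NK cell markers and under 26 CPM for granulocyte and mast cell markers, with none called, and the erythroid and platelet markers, 1 of 6 lower, stayed under 6 CPM. These marker shifts go with the same contrast as the results that follow, and their part in those results was not tested. In sorted bulk cells, fewer cells that express a gene and less RNA per cell cannot be told apart.

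In BFP-positive cells Sema4a and the co-receptor gene Nrp1 were higher, and the receptor genes Plxnd1 and Plxnc1 were lower. The other 6 genes did not pass the test. Calls are from edgeR's quasi-likelihood test at an adjusted p of 0.05 over all 11706 tested genes, of which 7.6% were called higher and 3.51% lower. Both BFP-positive libraries lay above both BFP-negative ones for 7 of the 10 genes and below them for 3. Over all tested genes the same held for 27.1% in either direction. The median log2 fold change of the 10 genes, BFP-positive over BFP-negative throughout, was 0.48, against -0.02 over all tested genes. Levels are in TMM-scaled CPM, with ± for the SD over the 2 libraries (n = 2) of a group, and SE stands for the standard error of the fitted log2 value. Comparisons between genes use the authors' RPKM, which divides by gene length.

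**Figure D1:**
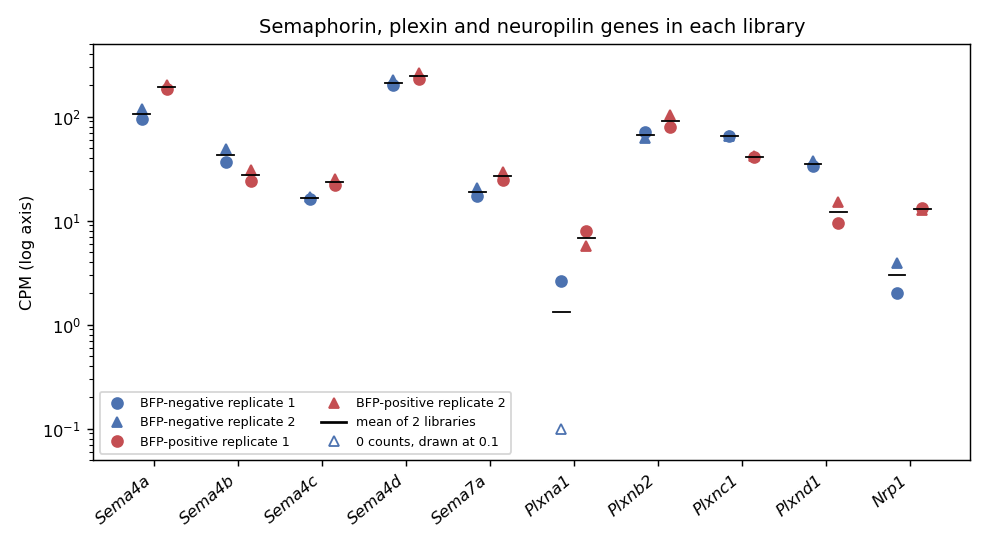
CPM of the 10 genes on a log axis, with 1 point per library (circles replicate 1, triangles replicate 2; blue BFP-negative, red BFP-positive) and black bars for the mean of 2 libraries. The red points lie above the blue ones for 7 genes and below them for Sema4b, Plxnc1 and Plxnd1; the open triangle is the BFP-negative library with 0 counts of Plxna1.

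Among the ligands, Sema4a changed most clearly. It encodes a transmembrane semaphorin of dendritic and B cells that costimulates T cells, and it lies on chromosome 3 from 88435959 to 88461182 (Entrez gene 20351; all positions are whole genes with introns on GRCm38). Its level was 94.1 and 119 CPM in BFP-negative and 185 and 202 CPM in BFP-positive libraries, given here and below as replicate 1, then replicate 2. The lowest BFP-positive library was thus well above the highest BFP-negative one. Its mean rose 1.81-fold, from 107 ± 17.9 to 193 ± 12.1 CPM, at a log2 fold change of 0.86 (SE 0.16, adjusted p = 0.00722). Sema4a passed the test with any 1 library left out, at log2 fold changes of 0.70 to 1.06.

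Sema4d, also known as CD100, is a ligand of B-type plexins and of Cd72 and had the highest mean RPKM of the 10 genes in either group, although its BFP-positive libraries overlapped those of Sema4a. It lies on chromosome 13 from 51685529 to 51793678 (Entrez gene 20354). It was at 202 and 224 CPM in BFP-negative and 232 and 262 CPM in BFP-positive libraries, so the groups stood apart by a narrow margin. The difference did not pass (log2 fold change 0.21, SE 0.14, adjusted p = 0.381), and its 95% interval ran from -0.09 to 0.51.

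Sema4b (chromosome 7, 80186870 to 80226646, Entrez gene 20352), a less studied class 4 member, went the other way among the ligands. It was at 36.3 and 48.4 CPM in BFP-negative and 23.9 and 31.0 CPM in BFP-positive libraries. These groups did not overlap, but each spread widely within itself and the difference did not pass (log2 fold change -0.62, SE 0.24, adjusted p = 0.136). The fitted value was -0.38 to -0.82 with 1 library left out. Sema4c (chromosome 1, 36548639 to 36560699, Entrez gene 20353), a ligand of Plxnb2, was at 16.1 and 17.0 CPM in BFP-negative and 22.2 and 25.4 CPM in BFP-positive libraries. Its log2 fold change of 0.52 (SE 0.26) did not pass either (adjusted p = 0.259). Its exons share 334 bases, 7.27% of its exonic length, with the opposite-strand transcript D430040D24Rik, and reads from both transcripts cannot be told apart there without strand.

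Sema7a is anchored in the membrane by a glycolipid and binds Plxnc1 and integrins with the beta-1 chain. It lies on chromosome 9 from 57939596 to 57962865 (Entrez gene 20361). It was at 17.4 and 20.4 CPM in BFP-negative and 24.5 and 29.7 CPM in BFP-positive libraries. The BFP-positive pair was higher without reaching the threshold (log2 fold change 0.52, SE 0.26, adjusted p = 0.251; 95% interval -0.05 to 1.09).

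Within class 4 the balance between the main ligands differed between the groups. Per length, Sema4a stood at 0.591 and 0.676 of Sema4d in BFP-negative libraries and at 1.01 and 0.976 of it in BFP-positive libraries. Sema4a made up 31.4% and 33.7% of the summed RPKM of the 4 class 4 genes in the former and 45.2% and 44.0% in the latter. The share of Sema4b was 10.6% and 11.96% against 5.13% and 5.92%, and that of Sema4c stayed between 4.37% and 5.01%. These ratios and shares are a description and were not tested.

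**Figure D2:**
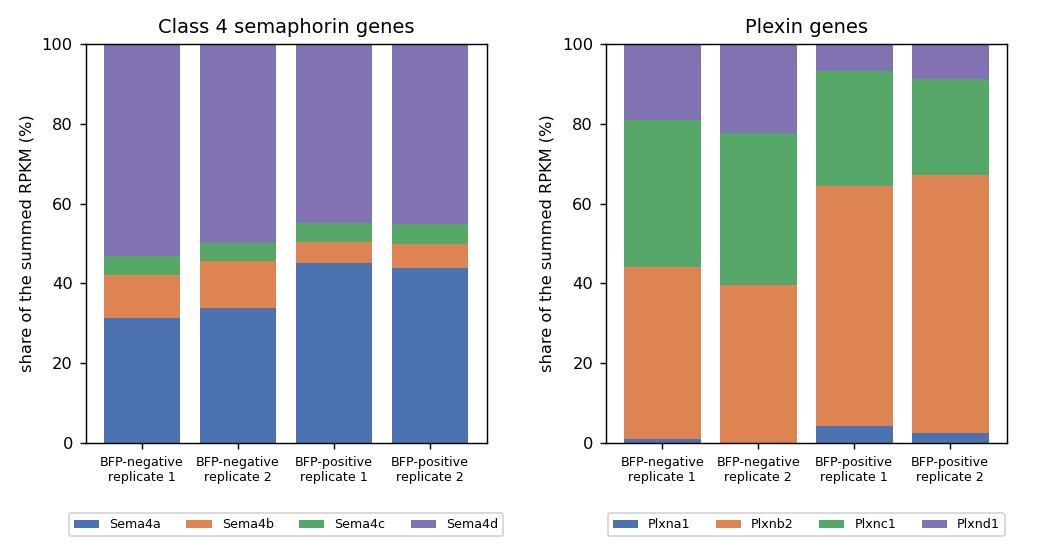
Share of the summed RPKM held by each class 4 semaphorin gene (left) and each plexin gene (right), in percent, with 1 stacked bar per library. Sema4a takes 31.4% and 33.7% of the left bars in BFP-negative and 45.2% and 44.0% in BFP-positive libraries, and Plxnb2 takes 43.1% and 39.5% against 60.01% and 64.7% of the right bars.

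Of the receptors, Plxnd1 changed most clearly. It is known as a receptor for Sema3e in vessels and thymocytes and lies on chromosome 6 from 115954811 to 115995339 (Entrez gene 67784). It was at 33.7 and 37.1 CPM in BFP-negative libraries and at 9.44 and 14.98 CPM in BFP-positive ones. Its mean fell 2.90-fold, from 35.4 ± 2.46 to 12.2 ± 3.92 CPM, at a log2 fold change of -1.53 (SE 0.29, adjusted p = 0.00751). Every alternative run kept this call, with -1.24 to -1.90 when 1 library was left out. A larger absolute log2 fold change was seen in 8.22% of all tested genes.

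Plxnc1, the receptor of Sema7a, lies on chromosome 10 from 94790866 to 94945015 (Entrez gene 54712). It was at 65.8 and 64.9 CPM in BFP-negative and 41.0 and 41.5 CPM in BFP-positive libraries, with the replicates of each group close together. The fall was 1.58-fold (log2 fold change -0.66, SE 0.18, adjusted p = 0.0401). The call was lost without BFP-negative replicate 1 or 2 and without BFP-positive replicate 1 or 2, at adjusted p = 0.104, 0.0957, 0.154 and 0.153, although the fitted value stayed between -0.65 and -0.67. So its ligand gene Sema7a had higher values and Plxnc1 lower ones in the same BFP-positive libraries, but only the fall of Plxnc1 passed the test.

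Plxnb2 (chromosome 15, 89155546 to 89182018, Entrez gene 140570) binds Sema4c and Sema4d and was the most abundant of the 4 plexin genes per length. It was at 71.998 and 62.5 CPM in BFP-negative and 79.4 and 104 CPM in BFP-positive libraries. The spread of the BFP-positive pair was wide and the difference did not pass (log2 fold change 0.45, SE 0.19, adjusted p = 0.168). Beside the falls of Plxnd1 and Plxnc1, the share of Plxnb2 in the summed RPKM of the 4 plexin genes was 43.1% and 39.5% in BFP-negative and 60.01% and 64.7% in BFP-positive libraries. The sum itself was 26.4 and 24.4 RPKM in the former and 19.8 and 23.9 RPKM in the latter.

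Plxna1, a receptor of class 3 and class 6 semaphorins that dendritic cells use in contact with T cells, was the least abundant. It lies on chromosome 6 from 89316313 to 89362613 (Entrez gene 18844). It had 33 counts in BFP-negative replicate 1 and 0 in replicate 2, against 92 and 70 in the BFP-positive libraries. The BFP-negative replicates thus disagreed more than for any other of the 10 genes. The log2 fold change of 2.36 had an SE of 1.11 and did not pass (adjusted p = 0.227). Without BFP-negative replicate 1 the gene passed (adjusted p = 0.000468), but that fit, at 9.38, has only a 0 to compare with and is no measured size. Without BFP-negative replicate 2 it was 1.38 (adjusted p = 0.217). Of its exonic bases 10.71% are shared with the antisense transcript Gm26811, where strand would be needed to assign reads.

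Nrp1 encodes neuropilin-1, a co-receptor for class 3 semaphorins and for vascular endothelial growth factor. It lies on chromosome 8 from 128358591 to 128505476 (Entrez gene 18186). Its short cytoplasmic tail ends in a motif that binds the PDZ domain of the adaptor protein Gipc1, so the end of the coding sequence is shown, from the GENCODE transcript Nrp1-201 on GRCm38, with the last 3 codons and the stop codon in capitals.
Nrp1: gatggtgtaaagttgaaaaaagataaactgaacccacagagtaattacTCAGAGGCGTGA
Counts per gene do not separate this membrane form from shorter transcripts that lack the tail. Nrp1 was at 2.01 and 3.94 CPM in BFP-negative and 13.2 and 12.8 CPM in BFP-positive libraries. The BFP-positive libraries nearly coincided, while the BFP-negative ones, with 25 and 50 counts, were low and differed from each other. Its mean rose 4.35-fold, from 2.98 ± 1.37 to 13.0 ± 0.324 CPM, at a log2 fold change of 2.12 (SE 0.46, adjusted p = 0.0154). It passed with any 1 library left out, at 1.72 to 2.71. It missed the threshold with limma on the authors' log2 RPKM (2.13, adjusted p = 0.0650). Gipc1 itself averaged 74.7 ± 9.54 CPM in the BFP-negative libraries against 70.6 ± 10.6 CPM in the others, a difference that did not pass (log2 fold change -0.08, SE 0.19; 95% interval -0.49 to 0.33).

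**Figure D3:**
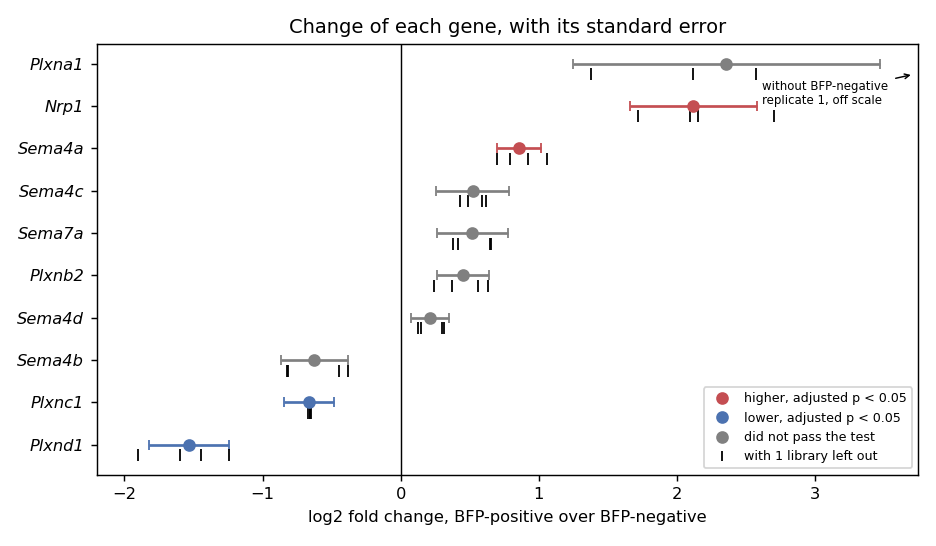
Log2 fold change of each gene, BFP-positive over BFP-negative, as points with bars of 1 SE; red and blue points passed the test upward and downward, and grey points did not. Black ticks give the value with 1 library left out. Sema4a and Nrp1 lie to the right of 0 and Plxnc1 and Plxnd1 to the left with all their ticks; 1 tick of Plxna1, at 9.38, is off the scale.

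The order of the 10 genes per length differed between the groups. In BFP-negative cells it ran from Sema4d (49.7 RPKM) and Sema4a (31.6) through Sema4b (11.0), Plxnb2 (10.5) and Plxnc1 (9.49) to Sema7a (5.91), Plxnd1 (5.24) and Sema4c (4.45), with Nrp1 (0.515) and Plxna1 (0.154) far below. There, Sema4b and Plxnb2 overlapped, as did Plxnb2 and Plxnc1, and the other neighbours did not. In BFP-positive cells it ran from Sema4d (55.1) and Sema4a (54.7) through Plxnb2 (13.7), Sema7a (8.09), Sema4b (6.81), Sema4c (6.11) and Plxnc1 (5.72) to Nrp1 (2.15), Plxnd1 (1.73) and Plxna1 (0.742). The libraries of Sema4d and Sema4a overlapped there, as did those of Sema7a and Sema4b, of Sema4b and Sema4c, and of Nrp1 and Plxnd1. Of all tested genes, 82.7% had a lower mean RPKM than Sema4d, 80.2% a lower one than Sema4a and 58.8% a lower one than Plxnb2, against 18.6% for Nrp1 and 5.68% for Plxna1.

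The other 21 genes of the family were mostly not detected at this depth. No count was found in any library for 15 of them, among them Sema3a, Sema3e, Sema6a, Plxna2, Plxna3, Plxna4, Plxnb1 and Plxnb3, and Nrp2 had 1 count in 1 library. Each count of 0 allows up to 0.257 CPM. Only 4 could be tested. Sema6d, a ligand of Plxna1, was the most abundant at 35.0 and 26.7 CPM in BFP-negative and 23.4 and 24.4 CPM in BFP-positive libraries, and did not pass (log2 fold change -0.37, SE 0.24, adjusted p = 0.401). Sema4f had no count in the BFP-negative and 19 and 29 counts in the BFP-positive libraries, at least 8.41-fold higher against a limit of 3 counts per BFP-negative library (adjusted p = 0.0199). Leaving out any 1 library ended this call, at adjusted p = 0.0790 and 0.0724 for the BFP-negative replicates 1 and 2, and 0.0714 and 0.155 for the BFP-positive ones. Sema3f, with 21 and 32 counts in BFP-negative against 9 and 20 in BFP-positive libraries, and Sema6b, with 11 and 0 against 15 and 49, did not pass (adjusted p = 0.645 and 0.264). Sema6b passed only without BFP-negative replicate 1, at adjusted p = 0.0429, where 0 counts remained in that group. Among the class 3 semaphorins, the ligands of neuropilins, only Sema3f had more than 1 count in a library, and Sema3e, a ligand of Plxnd1, had none.

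**Figure D4:**
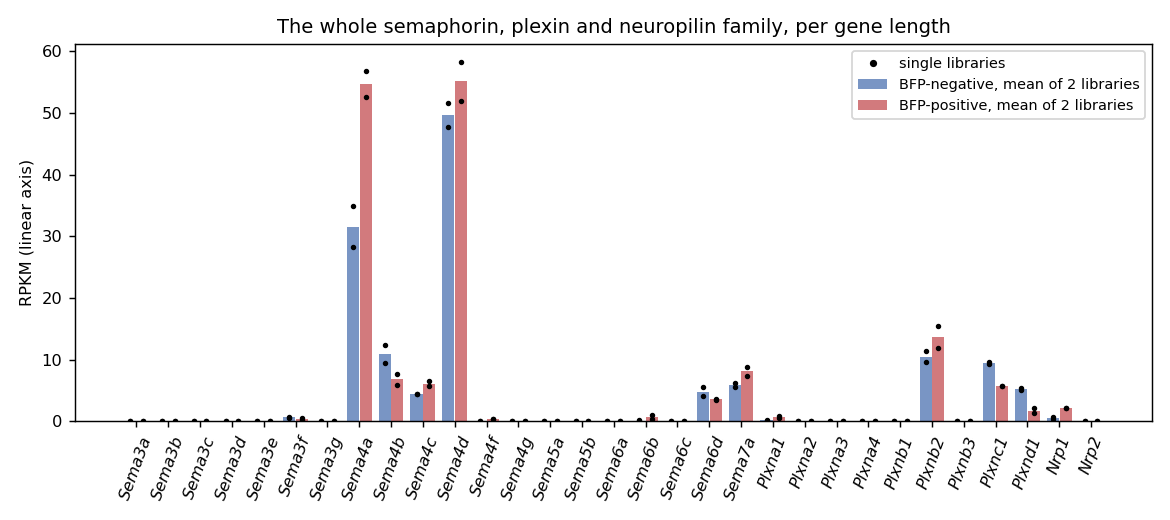
Mean RPKM of all 31 semaphorin, plexin and neuropilin genes on a linear axis, blue for BFP-negative and red for BFP-positive, with black dots for single libraries. Sema4a and Sema4d stand far above the rest, at 31.6 to 55.1 RPKM, and most other genes lie at 0.

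Other binding partners and the proteases that release class 4 semaphorins from the membrane were taken as a list of 16 genes, of which 11 were tested. By edgeR's test 3 of these were higher and none was lower, against 7.6% and 3.51% of all tested genes. None was lower at an unadjusted p of 0.05 either, or with DESeq2 or limma-voom. The median log2 fold change of the 11 genes was 0.31. Tyrobp, the signalling adaptor DAP12 that joins Plxna1 through Trem2 in myeloid cells, was very abundant and rose from 1195 ± 150 to 1667 ± 0.781 CPM, by 0.48 on the log2 scale (SE 0.12, adjusted p = 0.0260). Trem2 had no count in any library. Kdr, the VEGF receptor that pairs with neuropilin-1, rose 1.44-fold, from 146 and 164 to 239 and 209 CPM (adjusted p = 0.0378). Mmp14, a membrane protease able to shed Sema4d, rose 4.24-fold, from 2.73 and 1.97 to 7.98 and 12.02 CPM (adjusted p = 0.0243).

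None of these 3 calls held with each library left out in turn, although all 3 genes kept their direction. The log2 fold changes were then 0.36 to 0.64 for Tyrobp, 0.43 to 0.64 for Kdr and 1.76 to 2.35 for Mmp14. Tyrobp missed the threshold when BFP-negative replicate 1 or either BFP-positive library was left out (adjusted p = 0.0808, then 0.102 and 0.104), and so did Kdr (0.119, then 0.252 and 0.0635). Kdr also missed it by library totals alone (adjusted p = 0.0552). With limma on the authors' log2 RPKM, Tyrobp and Kdr missed it too (adjusted p = 0.0701 and 0.124). Mmp14 missed it without BFP-positive replicate 2 (0.196). Cd72, the B cell and pDC receptor of Sema4d, was abundant in both groups averaging 918 ± 23.0 CPM in the BFP-negative libraries against 849 ± 45.8 CPM in the others, and did not pass (log2 fold change -0.11, SE 0.11; 95% interval -0.36 to 0.13). Itgb1, the beta-1 chain that binds Sema7a, was at 130.05 ± 8.25 CPM and 161 ± 0.780 CPM, and its log2 fold change of 0.31 (SE 0.14) did not pass (adjusted p = 0.205). Timd2, a receptor reported for Sema4a, had 1 and 7 counts in BFP-negative and none in BFP-positive libraries and was not tested.

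**Figure D5:**
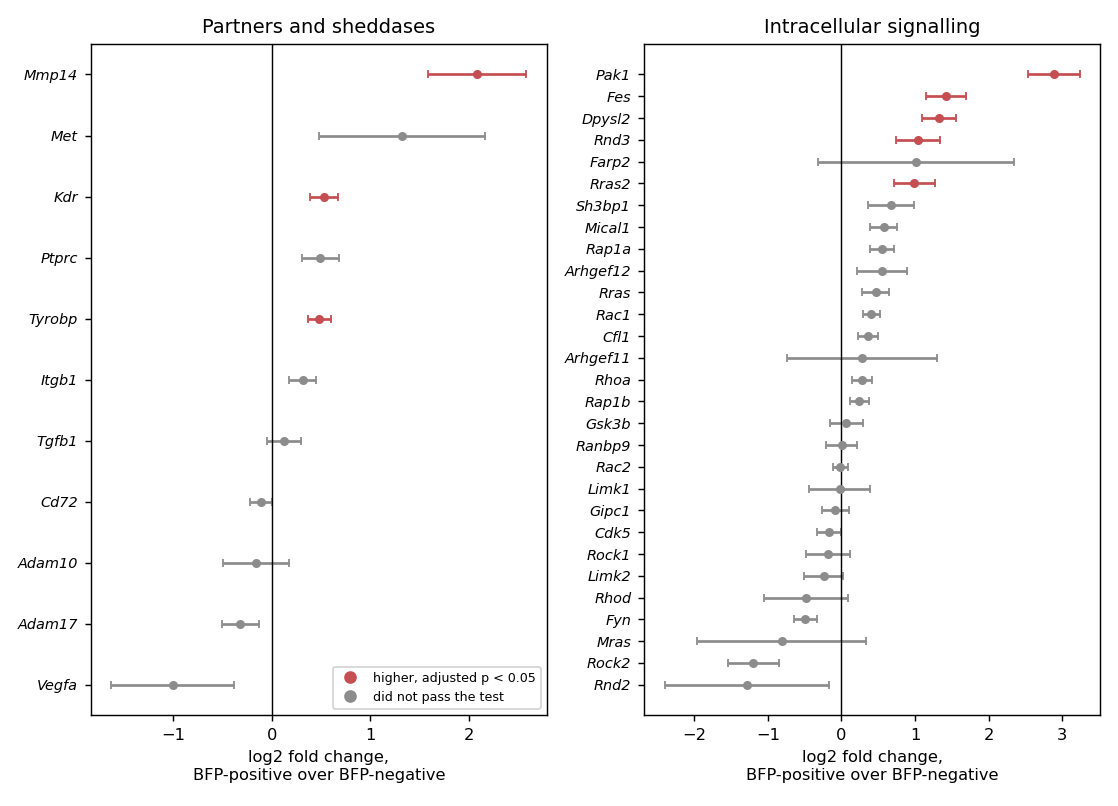
Log2 fold change, BFP-positive over BFP-negative, with bars of 1 SE, for the 11 tested partners and sheddases (left) and the 29 tested genes of plexin signalling (right). Red points passed the test upward (3 and 5 genes) and no gene passed it downward.

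Inside the cell, 36 genes of plexin signalling were listed (GTPases, their exchange factors, collapsin response mediators, Mical enzymes and kinases), and 29 were tested. Of these, 5 were higher and none lower by edgeR's test, against 7.6% and 3.51% of all tested genes. The median log2 fold change of the 29 genes was 0.28. At an unadjusted p of 0.05, 2 were lower, Fyn and Rock2, the same 2 that DESeq2 called and limma-voom did not. Scaling by library totals alone also called Fyn and Rock2 lower and left 3 higher, Pak1, Dpysl2 and Fes. The strongest rise was that of Pak1, a kinase downstream of Rac that drives actin remodelling, from 2.89 and 4.57 to 29.7 and 25.6 CPM, by 2.88 on the log2 scale (SE 0.35, adjusted p = 0.000617). Dpysl2, the collapsin response mediator CRMP2 through which semaphorins act on microtubules, rose 2.51-fold from 22.1 and 17.7 to 55.4 and 44.6 CPM (adjusted p = 0.00512). Both passed with any 1 library left out.

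Fes, a tyrosine kinase bound by plexin A proteins, rose 2.67-fold from 25.2 and 22.7 to 45.7 and 82.2 CPM (adjusted p = 0.00875), and missed the threshold without BFP-positive replicate 2 (0.0619, log2 fold change 0.94). Rras2, a Ras-group GTPase related to the plexin substrate Rras, rose 1.99-fold (adjusted p = 0.0471). Rnd3 rose 2.06-fold (adjusted p = 0.0497) and is named outside the fixed rule, after its value was seen. Rras2 was no longer called when BFP-negative replicate 2 or either BFP-positive library was left out (adjusted p = 0.129, then 0.170 and 0.0993). For Rnd3 these were BFP-negative replicate 1 and either BFP-positive library (0.153, then 0.101 and 0.170). By library totals alone Rras2 and Rnd3 stood at adjusted p = 0.0613 and 0.0587. With limma on the authors' log2 RPKM they stood at 0.0661 and 0.0752. Rnd3 also missed the threshold with edgeR's robust dispersion (adjusted p = 0.0506).

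The stretches of 250 bases before the RefSeq start sites (GRCm38.p6) were searched on both strands for 4 sequence motifs, and 9 of the 10 genes had such stretches, 17 in all. The core of the interferon-stimulated response element (GAAA, any 2 bases, GAAA) was found in 1 of them, before a start of Plxnc1, and in 2.98% of all 32851 stretches of that length. It is shown as the only such match among these genes, with 10 bases on either side and the match in capitals (chr10:94944944-94944973, minus strand, the match beginning 118 bases before the start).
Plxnc1: ttcacaatggGAAAGTGAAAcgcacaagcg
The E-box CAGGTG, of the kind bound by the pDC factor Tcf4, was found in 2 of the 17, 1 of Sema4c and 1 of Plxnb2, and in 17.2% of all stretches. The kappaB sequence (GGGA, any 2 bases, TTCC) and the PU.1 sequence GAGGAAGT were found in none of the 17, against 1.21% and 2.44% of all stretches. The 3 matches lie before start sites of 3 different genes, and all 3 lie inside the span of their own gene. The stretches of Sema4c and Plxnb2 that hold a match lie inside the gene with all 250 bases, and that of Plxnc1 with 170. The Sema4c stretch lies in annotated exons with all 250 bases, and the other stretches with a match with 0. A match is a description of letters and was not tested as a site.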

How the data were processed

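RNA-seq libraries from 2 BFP-positive and 2 BFP-negative pDC samples were made with a SMART-Seq kit, per the labels' protocols, which amplifies full-length cDNA without marking strand. The authors deposited raw counts per gene, whole numbers without normalization, and log2 RPKM values for each library. Subread, featureCounts, limma, GRCm38 and mm10 are listed in the submitters' processing notes; versions, strand setting and treatment of reads with several matches are not given in the sources used here. For 7257 genes with at least 100 counts per library, the gene length implied by counts and RPKM was equal over libraries within 1% in 100% of cases. The deposited RPKM use plain library totals.

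Counts were fitted with edgeR 4.0.16 in R 4.3.3 (quasi-likelihood, TMM, group as only term, 2 residual degrees of freedom, two-sided), after filterByExpr (minimum count 10, minimum total 15) kept 11706 genes, with Benjamini-Hochberg adjustment over these at 0.05. SE is the log2 fold change divided by the square root of F. The code was tested on simulated data. Positions are from RefSeq and exon overlaps from GENCODE M21, both GRCm38. In coding sequences of the 10 genes, 50-base windows shared with other genes were found only for Plxna1 (10.2%, with Gm26811) and Plxnc1 (1.45%, with Gm48718). Alternatives used limma 3.58.1, DESeq2 1.42.0, other filters and scalings, a replicate block and leaving out each library. The members and lists were chosen with earlier results of these data known. Named genes are all 10 members, other family genes with at least 10 counts in a library, the 4 called genes with the smallest p per direction in each further list, and Cd72, Timd2, Itgb1, Tyrobp, Trem2 and Gipc1. Some marker genes are not reported here by name.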

Additional observations from a re-analysis of the deposited data

How the results depend on the processing

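Over the 13 alternatives the 10 genes kept their direction in all 130 values and their side of the threshold in 123; the exceptions are Plxnc1 and Nrp1 with limma on the authors' log2 RPKM (adjusted p = 0.109 and 0.0650), Plxnc1 without each library in turn, and Plxna1 without BFP-negative replicate 1. Members called higher and lower fell to 1 and 1 with the authors' log2 RPKM, and with 1 library left out there were 2 to 3 higher (3 with Plxna1) and 1 lower each time. Replicate numbers were not taken as pairs, since the sources do not give the meaning of the code they share. Same-numbered libraries deviated together only weakly (r = 0.06 across 11706 genes, which are not replicates). With 2 libraries per group this cannot decide whether they are pairs. With the replicate block, edgeR and limma-voom called 1140 and 1193 genes higher, against 890 and 918 without it. They called 760 and 826 genes lower, against 411 and 453 without it. The block left all calls of the 10 genes as they were. Over all tested genes, leaving out 1 library gave 559 to 921 genes higher, lowest without BFP-positive replicate 2, and 245 to 408 lower, lowest without BFP-positive replicate 1. Scaling by library totals gave 813 higher and 574 lower and moved the median of all genes to -0.09. Of the other family genes, 0 were called higher at a minimum count of 50, where Sema4f was not tested, and 0 with the authors' log2 RPKM, and 0 to 1 with a library left out. Partner genes called higher numbered 1 with the authors' log2 RPKM and 0 to 3 with a library left out. Signalling genes called higher numbered 3 by library totals, 8 with DESeq2, 3 with the authors' log2 RPKM, 9 and 9 with the replicate block in edgeR and limma-voom, and 3 to 6 with a library left out. Signalling genes called lower numbered 2 by library totals, 2 with DESeq2, 1 at a minimum count of 50 (Rock2) and 2 and 2 with the replicate block, where they were Fyn and Rock2. The log2 fold change of Gipc1 turned to 0.075 without BFP-negative replicate 2 and 0.067 without BFP-positive replicate 2, with a range of -0.24 to 0.075. The alternatives for genes outside the 10 were added after seeing the data. The cause of these moves was not tested. Among the tested family genes, counts were lowest for Plxna1, Nrp1, Sema3f, Sema4f and Sema6b, at 0 to 50 in the BFP-negative libraries. Mmp14, with 34 and 25 counts there, and Pak1, with 36 and 58, were low as well. Counting error is largest at such counts.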
